A study of Rattus norvegicus with 13 samples.

Results

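C646, an inhibitor of the histone acetyltransferases p300 and CBP, was added alone to rat lenses in galactose medium, and 1 array of such lenses was set against 3 arrays of lenses kept in galactose to Day 6. These 4 arrays of the 13 in the series were taken by their labels. The C646 group therefore has n = 1, and no spread between C646 samples is known. All 4 arrays held total RNA of Sprague Dawley lenses in 30 mM galactose, labelled day 6, and the C646 array also had 40 µM C646. By the study's methods the lenses came from 6-week-old male rats, and the inhibitor, dissolved in DMSO, was given once an opacity had formed, so it was present for only part of the 6 days. The contralateral lenses received DMSO, but neither labels nor methods say whether the 3 galactose arrays did, nor whether replicates came from different animals, so that their spread may be partly technical. Other arrays used beside these were 1 control without galactose at day 4, 3 galactose Day 4 arrays in 30 mM galactose, and 1 array each, at day 6 in galactose, with 80 µM CPTH2, with 40 µM C646 and 80 µM CPTH2, with 10 µM CBP30, with CBP30 and CPTH2 (by its title, its CBP30 dose being unclear in the labels), and with 50 µM TH1834. CPTH2 targets Gcn5, TH1834 targets Tip60, and CBP30 binds the bromodomain of p300 and CBP.

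p300 and CBP are large coactivators. They are brought to enhancers and promoters by transcription factors such as CREB, p53, NF-kB and Nrf2, and they acetylate histones and the factors themselves. Nrf2, encoded by Nfe2l2, is the main activator of the genes for glutathione synthesis, quinone reduction and NADPH supply. It binds the antioxidant response element, and it is held low by Keap1 until electrophiles or oxidants modify Keap1. The lens depends on glutathione to keep its crystallins soluble, and lenses in galactose use NADPH to make galactitol through aldose reductase.

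The genes furthest above galactose Day 6 with C646 included Nqo1, Ptgr1 and Gstp1, which detoxify quinones, unsaturated carbonyls and electrophiles. Of 20 analysed genes of an Nrf2 target list, 18 lay above all 3 galactose Day 6 arrays and 0 below them. Of all genes analysed, 33.8% lay above and 15.2% below. Among the 18, Ephx1 passed the filter on signal only through C646. Gpx1, a glutathione peroxidase, and several histone genes were among those below. No gene passed the test across all genes, so every difference below is a difference between 1 array and 3 arrays that stands as a description.

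Promoter letters of Nrf2 list genes are shown because most of these genes, though not Nfe2l2 and Abcc1, lay above galactose Day 6. The windows run from 250 bases before to 50 bases after the gene start in RefSeq (rat build GRCr8). Of the 20 measured list genes, 18 had a window in the table, with 20 windows in all. The core letters of the antioxidant response element, TGACNNNGC on either strand, stood in 7 of these 20 windows and in 12.1% of the 33469 windows of all genes, or 15.2% of the 5273 windows of genes analysed. The list was drawn up as Nrf2 targets, so its share says nothing about C646. A match is a description of letters and not a binding site. The 7 stretches below are printed 5′ to 3′ on the gene's strand, with the core in capitals.
Gstp1, chromosome 1, minus strand, chr1:210769732-210769792: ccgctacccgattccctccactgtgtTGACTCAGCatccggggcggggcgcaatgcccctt
Me1, chromosome 8, minus strand, chr8:96540377-96540437: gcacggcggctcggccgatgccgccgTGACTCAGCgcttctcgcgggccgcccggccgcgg
Prdx1, chromosome 5, plus strand, chr5:135383745-135383805: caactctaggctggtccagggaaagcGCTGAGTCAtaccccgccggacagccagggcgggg
Gclm, chromosome 2, plus strand, chr2:213031937-213031997: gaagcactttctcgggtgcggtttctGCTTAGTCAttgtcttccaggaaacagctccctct
Ephx1, chromosome 13, minus strand, chr13:95263140-95263200: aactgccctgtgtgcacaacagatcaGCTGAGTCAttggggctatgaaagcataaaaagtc
Txnrd1, chromosome 7, minus strand, chr7:22755948-22756008: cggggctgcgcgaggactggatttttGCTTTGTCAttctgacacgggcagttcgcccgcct
Nfe2l2, chromosome 3, minus strand, chr3:81028950-81028987: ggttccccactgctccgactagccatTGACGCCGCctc
In Gstp1, Me1, Prdx1 and Ephx1 the core overlaps the AP-1 letters TGACTCA, so the same bases hold both motifs. Its first base lay 61 bases before the start in Gstp1 and 167 bases before it in Me1. Ephx1 and Txnrd1 have more than 1 window each, and 1 of them holds the match. The windows of Nqo1 and Gclc held no match, which says only that these letters are not within them.

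Of 18166 named genes on the array, 5898 reached a log2 signal of 5 in at least 1 of the 4 arrays and were analysed. Of these, 165 passed this filter only through C646 and 572 only through galactose Day 6, and differences that reach below 5 have no exact size. The crystallins marked the samples as lens, with mean log2 signals of 12.31, 12.16 and 12.17 in the 3 Day 6 arrays and 11.93 with C646. Of 102 entries in marker lists of 10 other cell types, 83 were on the array and 2 were analysed, Cd68 and Ckm. Mean log2 signals of the macrophage list were 3.13 with C646 and 3.13 to 3.50 in galactose Day 6, although Cd68, a lysosomal glycoprotein, had 5.84 against 4.73, 5.21 and 4.32. The leukocyte marker Ptprc was at 1.85 to 2.09 in these 4 arrays. Over all genes the root mean square log2 difference from C646 was 0.476 for Day 6 replicate 1, 0.353 for replicate 2 and 0.351 for replicate 3. Replicate 1 lay 0.445 and 0.462 from the other replicates, which lay 0.310 from each other. The C646 array was thus little further from replicates 2 and 3 than they were from each other. The array nearest to C646 was CPTH2, at 0.300, and the furthest was the control, at 0.591.

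Signals with C646 were on the whole slightly above galactose Day 6. The array median was 5.98 with C646 and 5.84, 5.90 and 5.95 in the Day 6 arrays, and the median log2 difference over all genes was 0.09. C646 lay above all 3 Day 6 arrays for 33.8% of genes below all 3 for 15.2% and within their range for 51.1%, and these shares are the ones to set beside the counts of any gene list. After quantile normalization they became nearly equal, with 1393 genes above and 1477 below in place of 1992 and 894. A limma model of all 13 arrays, in which the lone C646 array was assumed to vary like the galactose replicates, called 0 genes (0%) at an adjusted p under 0.05, with a smallest adjusted p of 0.272. At an unadjusted p under 0.05 it held 253 genes (4.29%), 185 above (3.14%) and 68 below (1.15%). By a rule of size without a test, 32 genes (0.543%) lay above all 3 Day 6 arrays by a log2 difference of 1 or more from their mean, and 12 (0.203%) lay as far below, 44 (0.746%) in all. After quantile normalization these were 24 and 26 genes, so neither side prevailed. The rule ends between close values, as Tp53inp1 at 1.00 was inside it and Tmem88 at 0.996 was not. Only 10 of the genes above and 2 of those below were also a log2 of 1 or more from the nearest Day 6 array. Of the 32 genes above, 5 had all 3 Day 6 signals below 5 and passed the filter only through C646. Of the 12 below, 6 had C646 below 5 and passed it only through Day 6. Each of these could leave the Day 6 range on that side only.

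**Figure D1:**
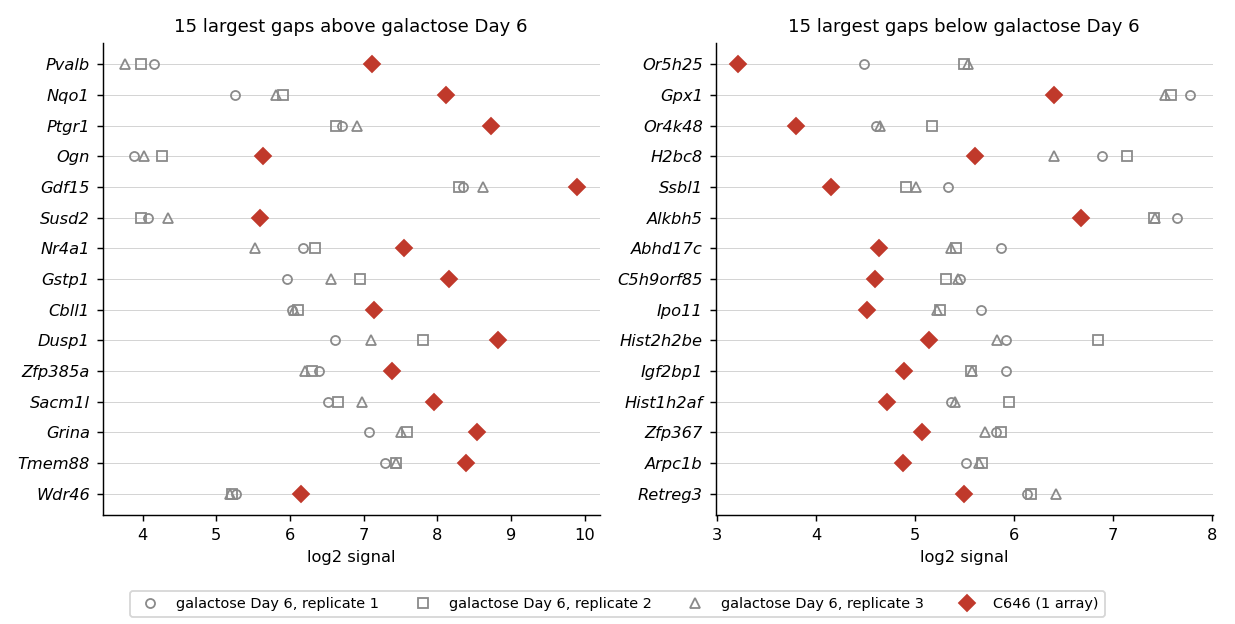
Log2 signal (x axis) of the 15 genes with the largest gap above the nearest galactose Day 6 array (left) and the 15 with the largest gap below it (right). Open symbols are the 3 Day 6 replicates and filled diamonds the single C646 array. Nqo1 at 8.12 and Ptgr1 at 8.72 stand clear of Day 6 signals of 5.25 to 5.91 and 6.63 to 6.91, and the gaps below are smaller, with Gpx1 at 6.40 against 7.52 to 7.78.

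Among the enzymes of the Nrf2 list, Nqo1, the quinone reductase that moves 2 electrons at once, had log2 signals of 5.25, 5.91 and 5.81 in galactose Day 6 and 8.12 with C646. The difference was 2.47 ± 0.39 (SE; 95% interval 1.58 to 3.36), or 5.53-fold, at an adjusted p of 0.272 in limma. No other array without C646 came near it, with 3.65 in the control, 4.96 to 5.99 on Day 4, 6.16 with CPTH2, 5.61 with CBP30 and 4.95 with TH1834. Gstp1, a glutathione transferase abundant in many epithelia, had 5.96, 6.95 and 6.56 in Day 6 and 8.15 with C646, a difference of 1.66 ± 0.38 (SE; 3.16-fold; adjusted p = 0.954). All 12 other arrays lay lower, the nearest being C646+CPTH2 at 7.17 and CBP30 at 7.10.

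Glutathione synthesis starts with glutamate cysteine ligase, whose catalytic subunit Gclc had 5.29, 5.71 and 5.70 in Day 6 and 6.36 with C646. The modifier subunit Gclm had 6.51, 6.97 and 6.96 against 7.35. Both subunits thus lay above the Day 6 range, by log2 differences of 0.79 ± 0.28 and 0.54 ± 0.26 (SE) from its mean. Gsr, which returns oxidised glutathione to its reduced form, had 5.16, 5.12 and 4.64 in Day 6 and 5.45 with C646. Gstm1, a mu class glutathione transferase, had 5.56, 5.54 and 5.22 against 6.02.

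NADPH comes in part from malic enzyme, and Me1 had 5.36, 5.18 and 5.47 in Day 6 and 6.15 with C646, a difference of 0.82 ± 0.25 (SE). Tkt, the transketolase of the pentose phosphate pathway, had 7.43, 8.86 and 8.56 against 9.13. Its difference of 0.85 rested largely on Day 6 replicate 1, since C646 lay only 0.27 above the nearest array. Taldo1, the transaldolase of the same pathway, had 7.16, 7.22 and 7.17 against 7.28. Ephx1, the microsomal epoxide hydrolase, passed the filter only through C646, with 4.37, 4.43 and 4.12 in Day 6 and 5.08 with C646. Osgin1, which the oxidative stress response induces, had 4.40, 5.16 and 4.77 against 5.59.

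Several other members lay close to the Day 6 range. Hmox1, the haem oxygenase, had 10.82, 11.36 and 11.50 in Day 6 and 11.57 with C646. Txn1, thioredoxin, had 10.35, 10.23 and 10.07 against 10.41, and Txnrd1, its reductase, had 5.67, 5.97 and 5.80 against 6.01. C646 thus exceeded the highest Day 6 array by 0.06 in Hmox1, 0.05 in Txn1 and 0.03 in Txnrd1. Prdx1, a peroxiredoxin, stood further off, with 7.32, 7.50 and 7.68 against 8.10. Nfe2l2 itself had 7.76, 8.30 and 8.13 in Day 6 and 8.13 with C646, within the range. Abcc1, an exporter of glutathione conjugates, was also within the range, at 4.78 against 4.65 to 5.16.

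Over the list, which names 30 genes, 28 were on the array and 8 of these did not reach the filter in any of the 4 arrays: Srxn1, Slc7a11, Gsta1, Gsta2, Gsta3, Gsta4, Aldh3a1 and Akr1b8. Of the 20 analysed, 18 (90%) lay above all 3 Day 6 arrays, where 33.8% of all genes did, and their median log2 difference was 0.51, where that of all genes was 0.09. Ephx1 had to lie above, since it passed the filter only through C646. With a filter on the mean signal, in which neither side alone lets a gene in, 17 lay above. With no filter on signal 22 of the 28 did, where 4512 of all 18166 genes did. After quantile normalization 14 and after median centring 15 of the 20 did, with medians of 0.43 and 0.43, where 1393 and 1467 of all 5898 genes did. Without Day 6 replicate 1, whose mean over the list was the lowest at 6.54, the count was 18 and the median 0.41. In that setting 2480 of all 5898 genes lay above. The list mean was 7.36 with C646 and 6.90 and 6.81 in the other Day 6 replicates. Day 4 arrays had 6.69, 6.86 and 6.81, so no galactose array reached the C646 level. Of the other inhibitor arrays, C646+CPTH2 had 7.27, TH1834 6.98, CPTH2 6.95, CBP30+CPTH2 6.82 and CBP30 6.72.

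**Figure D2:**
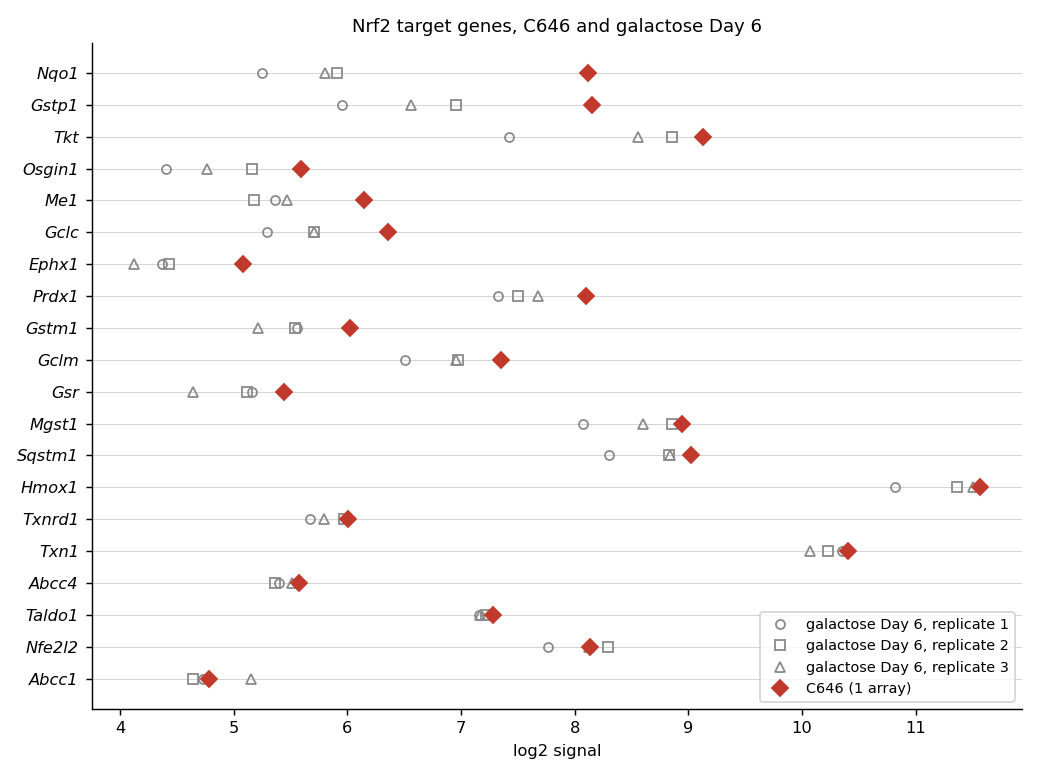
Log2 signal (x axis) of the 20 analysed Nrf2 target genes in the 3 galactose Day 6 replicates (open symbols) and the single C646 array (filled diamonds), ordered by the difference from the Day 6 mean. C646 lies to the right of all 3 replicates in 18 genes, by a wide gap in Nqo1 and Gstp1 and by 0.03 in Txnrd1, and within their range in Nfe2l2 and Abcc1.

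Markers of the lens epithelium, the single cell layer on the front of the lens, had a mean log2 signal of 6.90 with C646 and 6.24, 6.98 and 7.11 in galactose Day 6. Of the 9 analysed, 7 lay above the Day 6 mean, 2 lay above and 1 below all 3 Day 6 arrays, and the median difference was 0.10. The part of this in the Nrf2 list was not tested. In bulk RNA fewer cells of a type cannot be told apart from less RNA per cell. Of these markers, Pax6, a regulator of lens identity, had 7.55 with C646 and 6.69, 7.92 and 7.90 in Day 6. Replicate 1 was the lowest of the 4 arrays both here and in the Nrf2 list.

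A separate list of peroxide and superoxide enzymes lay on both sides of galactose Day 6. Gpx1, the cytosolic glutathione peroxidase, had 7.78, 7.59 and 7.52 in Day 6 and 6.40 with C646. Its difference of -1.23 ± 0.21 (SE; 95% interval -1.70 to -0.75; 2.34-fold lower) had an adjusted p of 0.356 in limma. Gpx1 also had 7.44 to 7.61 in the Day 4 arrays, but 6.82 in the control and 6.23 to 6.68 in the 5 other inhibitor arrays. All 6 galactose arrays were thus higher than all other arrays. Cat, the catalase, had 7.83, 9.25 and 9.33 in Day 6 and 9.87 with C646, and its difference of 1.07 came largely from replicate 1. Of the 12 genes of this list, 4 lay above and 4 below all 3 Day 6 arrays, with a median of 0.01.

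Ptgr1, the prostaglandin reductase that also reduces unsaturated aldehydes, was not in the Nrf2 list and was named for its gap. It had 6.71, 6.63 and 6.91 in galactose Day 6 and 8.72 with C646, a difference of 1.98 ± 0.32 (SE; 95% interval 1.27 to 2.69; adjusted p = 0.272). Arrays without C646 had 5.54 to 7.48, the highest being CPTH2. Gdf15, a stress-induced cytokine, had 8.35, 8.29 and 8.62 in Day 6 and 9.90 with C646. Its difference was 1.48 ± 0.31 (SE), but CPTH2 alone was higher still, at 10.74.

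**Figure D3:**
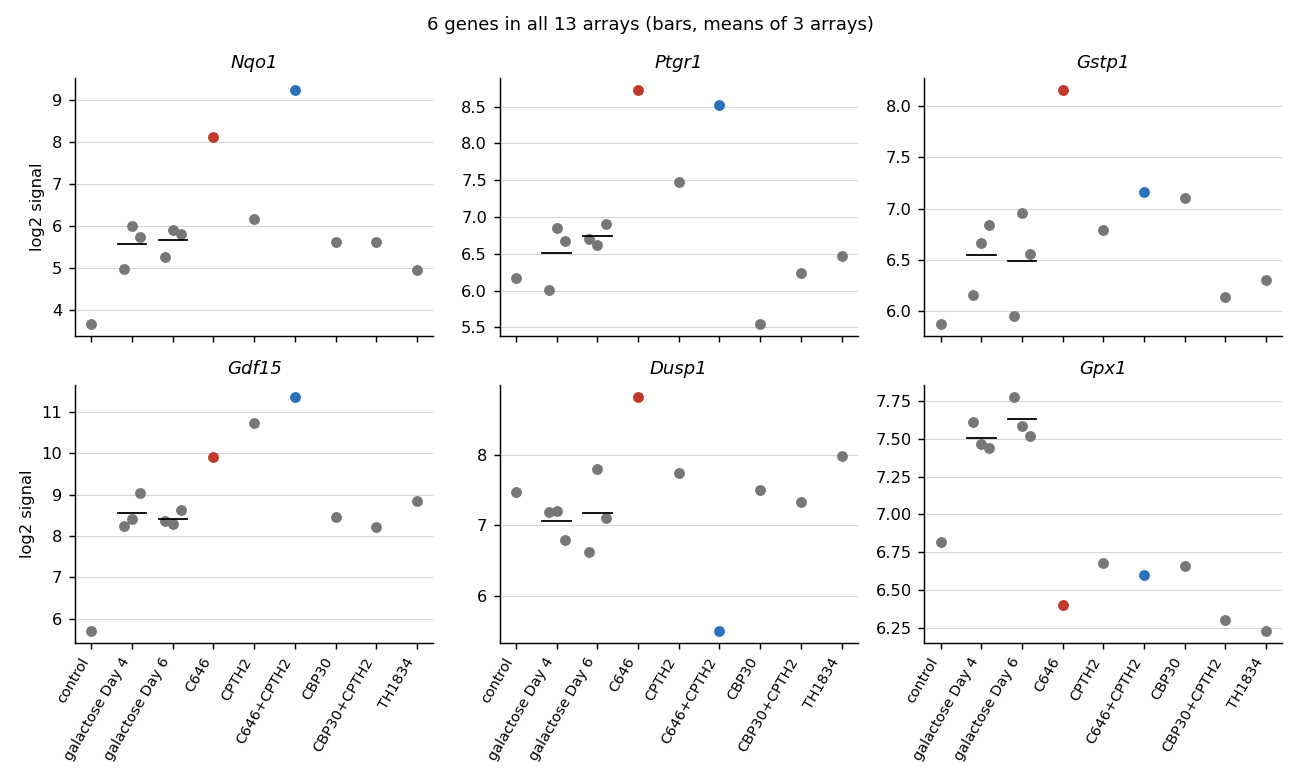
Log2 signal (y axis) of 6 genes in all 13 arrays, with black bars for the means of 3 galactose arrays. C646 is red and C646+CPTH2 blue. Nqo1 and Ptgr1 are highest in the 2 arrays that hold C646, Gstp1 is highest with C646 alone, Gdf15 is also high with CPTH2, Dusp1 is highest with C646 alone and lowest with C646+CPTH2, and Gpx1 is lower in every inhibitor array than in every galactose array.

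CREB recruits CBP to the cyclic AMP response element of its target genes, and 2 such targets were among the leading genes. Dusp1, a phosphatase that turns off MAP kinases, had 6.62, 7.80 and 7.10 in galactose Day 6 and 8.82 with C646, a difference of 1.65 ± 0.39 (SE). Nr4a1, an orphan nuclear receptor, had 6.17, 6.33 and 5.53 against 7.54. The letters TGACGTCA were found in 1.83% of all windows and in 3.74% of the windows of genes analysed. They were absent from the window of Nr4a1 and stood 124 bases before the start of Dusp1 in the stretch below.
Dusp1, chromosome 10, plus strand, chr10:17184703-17184762: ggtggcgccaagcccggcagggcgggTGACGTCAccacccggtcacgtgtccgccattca
Crtc1, a CREB coactivator, had 5.88, 6.20 and 6.43 in Day 6 and 6.60 with C646, and Crem, a CREB relative, had 4.89, 4.73 and 4.58 against 5.05. These were the 4 analysed genes of a list of 20 CREB targets and regulators, and 16 did not reach the filter. All 4 lay above the Day 6 range, but Crem had to, since it passed the filter only through C646. With no filter the median of the list was 0.09.

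Immediate early genes, which are switched on without new protein synthesis, did not lie to one side. Of 16 analysed, 6 lay above and 3 below all 3 Day 6 arrays, with a median of 0.04. Fos had 6.64, 6.95 and 6.41 in Day 6 and 7.60 with C646, and Egr1 had at most 7.40 in Day 6 against 7.87. Junb, a partner of Fos, had 6.04, 5.86 and 5.47 against 5.13 and was the lowest below its range.

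Chaperones of the endoplasmic reticulum, which fold secreted and membrane proteins, came next to the Nrf2 list by median among lists of 20 or more genes. Of 20 analysed, 13 (65%) lay above and 1 below all 3 Day 6 arrays, with a median of 0.34. Calr, calreticulin, had 9.04, 9.72 and 9.80 in Day 6 and 10.25 with C646. Hspa5, the chaperone BiP, had 9.58, 9.56 and 9.41 against 10.01, and Herpud1, of the degradation machinery, had 8.29, 8.11 and 8.32 against 8.78. Hsp90b1, the chaperone GRP94, had 7.59, 7.71 and 8.06 against 8.40. These levels were not the highest in the series, since the list mean was 7.22 with C646, 7.61 with CPTH2 and 7.34 with CBP30, against 6.80 to 7.01 in Day 6. Against all 6 galactose arrays the median was 0.24.

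Of the other lists with 17 or more genes analysed, ribosome biogenesis genes had 12 of 17 (70.6%) above and 0 below all 3 Day 6 arrays, at a median of 0.28. Mrto4 and Tfb2m, 2 of these 17, passed the filter only through C646 and had to lie above. The mean of the ribosome biogenesis list was 6.70 with C646 and 6.29 to 6.55 in Day 6, but 6.72 in Day 4 replicate 1. It was higher with CPTH2 at 6.86, C646+CPTH2 at 6.97 and CBP30+CPTH2 at 6.83, and lower with CBP30 at 6.63 and TH1834 at 6.66. Odc1, which makes polyamines, had 7.89, 8.20 and 7.83 in Day 6 and 8.42 with C646, and Nip7, of ribosome assembly, had 6.79, 6.83 and 6.78 against 7.15. Proteasome subunits had 13 of 30 above and 2 below, at a median of 0.11, which was -0.02 after quantile normalization. Integrated stress response genes had 13 of 32 above and 4 below, at 0.16, and at 0.02 against all 6 galactose arrays. In that list Wars1, the tryptophanyl-tRNA synthetase, had 6.64, 6.85 and 6.68 against 7.53, and Asns, asparagine synthetase, had at most 7.22 in Day 6 against 7.50. Heat shock proteins of the cytosol had 5 of 20 above and 5 below.

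**Figure D4:**
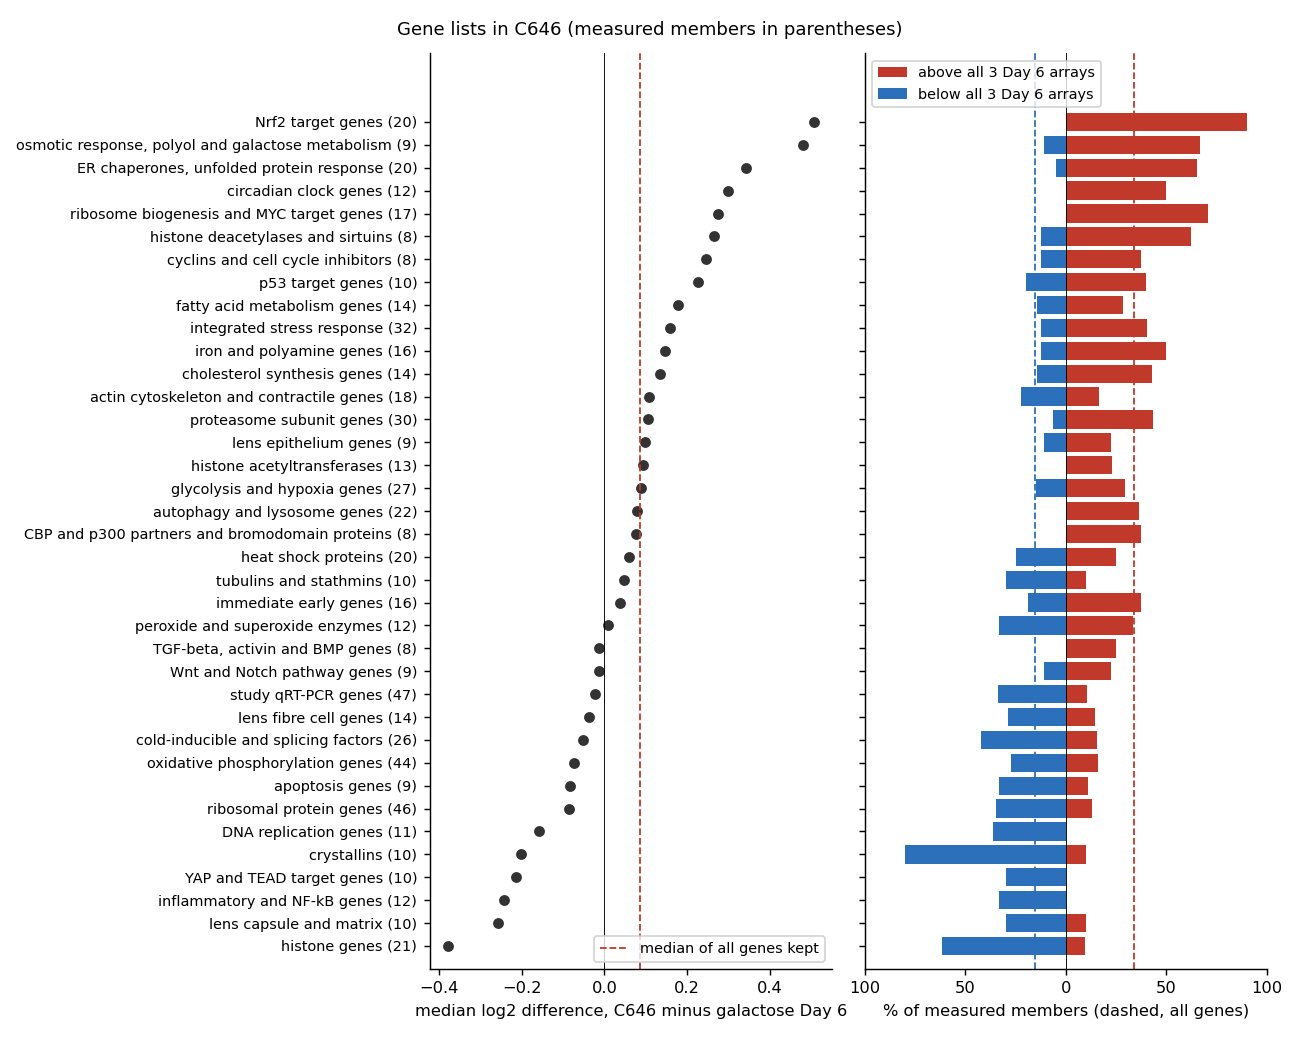
Gene lists with 8 or more analysed members, with the number in parentheses. Left, the median log2 difference of C646 from the galactose Day 6 mean, with a dashed line at the median of all genes, 0.09. Right, the percentage of members above (red) and below (blue) all 3 Day 6 arrays, with dashed lines at the shares of all genes, 33.8% and 15.2%. The Nrf2 list is at the top at 0.51 and the histone genes at the bottom at -0.38.

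Histone genes lay lowest of the lists with 8 or more members. Of 21 analysed, 13 (61.9%) lay below all 3 Day 6 arrays, where 15.2% of all genes did, and 2 above, with a median of -0.38. Among the 21, 4 passed the filter only through galactose Day 6 and could not lie above all 3. H2bc8, a clustered H2B gene, had 6.88, 7.14 and 6.40 in Day 6 and 5.60 with C646, a difference of -1.20 ± 0.33 (SE). H2ac25, an H2A gene, had 7.79, 8.58 and 8.13 against 7.17, and Hist2h2be, an H2B gene, had 5.92, 6.85 and 5.82 against 5.14. Hist2h3c2, an H3 gene, had 9.37, 9.88 and 9.58 against 8.86. H1f10, a replication-independent linker histone, lay on the other side, with 6.11, 6.52 and 6.03 against 6.93. Clustered histone genes are near-identical copies, so their probe sets may share signal. The list mean of 6.52 with C646 was below the 6.73 to 7.26 of Day 6 but equal to that of CPTH2 at 2 decimals, above C646+CPTH2 at 6.07 and above the control at 6.40. DNA replication genes, which are expressed in the same phase of the cell cycle, had 0 of 11 above and 4 below, at a median of -0.16. Among these 11, 5 passed the filter only through galactose Day 6 and could not lie above.

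Crystallins, the bulk proteins of the lens, had 8 of 10 below and 1 above all 3 Day 6 arrays, but by small amounts, at a median of -0.20. The list mean of 11.93 with C646 lay within the 11.86 to 11.98 of the other inhibitor arrays, and Day 4 arrays had 12.05 to 12.17. Between C646+CPTH2 and CPTH2 the median difference was 0.03. Crygn had 10.65, 10.04 and 10.18 in Day 6 and 9.64 with C646, Cryge had 10.70, 10.48 and 10.49 against 10.06, and Crygb had 12.04, 12.16 and 12.03 against 11.62. The most abundant, Cryab and Cryba1, differed by 0.03 and 0.01. The gamma crystallins are similar in sequence, so probe sets may share signal. Gja3, a gap junction protein of fibre cells, had 7.63, 7.47 and 7.65 against 7.12.

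NF-kB targets and cytokine genes had 0 of 12 above and 4 below all 3 Day 6 arrays, at a median of -0.24, which was -0.39 after quantile normalization and -0.08 with no filter on signal. Of these 12, 5 passed the filter only through galactose Day 6 and could not lie above all 3. Ccl2, a monocyte chemokine, had 7.04, 7.70 and 6.72 in Day 6 and 6.19 with C646, and Nfkb1, the p50 precursor, had 5.23, 5.38 and 5.65 against 5.02. Lcn2, a siderophore-binding protein of inflamed epithelia, had 5.25, 9.17 and 4.77 against 4.28, so that its difference of -2.12 ± 2.02 (SE) was set by replicate 2. YAP and TEAD targets had 0 of 10 above and 3 below, at a median of -0.21, or -0.41 at a signal of 6 or more. Here 4 of the 10 passed the filter only through galactose Day 6 and could not lie above. Below lay Ccn2, a matrix-associated growth factor, with 7.67, 6.26 and 6.98 against 5.92.

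Genes for osmotic response and polyol metabolism had 6 of 9 above and 1 below all 3 Day 6 arrays, and Sgk1, 1 of the 6, had to lie above because it passed the filter only through C646. Akr1b1, the aldose reductase that makes galactitol, had 9.39, 9.89 and 9.73 in Day 6 and 10.18 with C646, and Sord, sorbitol dehydrogenase, had 4.51, 5.21 and 5.13 against 5.43. Aqp5, a water channel, had 6.05, 5.82 and 5.88 against 6.82, and Sgk1, a kinase that controls sodium transport, had 4.63, 4.97 and 4.87 against 5.75. The median of this list was 0.48, but 0.25 with no filter on signal, 0.26 without Day 6 replicate 1 and 0.26 against all 6 galactose arrays. A3galt2, a galactosyltransferase gene, had 7.49, 7.45 and 7.87 against 7.07.

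The transcripts of the acetyltransferases themselves were close to galactose Day 6. Of 13 analysed, 3 lay above and 0 below all 3 Day 6 arrays, with a median of 0.09, the same as all genes. Crebbp, which encodes the C646 target CBP, had 6.08, 6.11 and 6.34 in Day 6 and 6.30 with C646, and the difference of 0.12 had a 95% interval of -0.35 to 0.60. Kat2b, the acetyltransferase PCAF, had 6.48, 6.29 and 6.01 against 6.18, and Kat5, which encodes Tip60, had 5.17, 5.43 and 5.53 against 5.55. Ep300 was not analysed here. Sirt2, a tubulin deacetylase, had 9.02, 9.71 and 9.99 against 10.49 and was the deacetylase gene with the second largest gap, after Hdac11 at 4.58, 4.67 and 4.65 against 5.19, which passed the filter only through C646.

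Other genes with large gaps belonged to no single list. Pvalb, a calcium-binding protein of fast muscle and interneurons, had the largest gap of all, with 4.15, 3.98 and 3.76 in Day 6 and 7.12 with C646. Day 4 replicate 1 had 7.05 and replicate 3 had 6.14, but replicate 2 had 3.85. The C646 value thus lay 0.07 above the highest of 6 widely spread galactose arrays, and its adjusted p in limma was 0.978. Ogn, a small proteoglycan, had 3.88, 4.26 and 4.02 against 5.64, and Susd2, a membrane protein, had 4.07, 3.98 and 4.35 against 5.60. The Day 6 signals of these 3 genes lay below 5. Tfrc, the transferrin receptor, had 4.74, 5.38 and 4.81 against 6.24, and Grina, a membrane protein that limits cell death, had 7.08, 7.59 and 7.51 against 8.54. On the lower side, Alkbh5, which removes methyl groups from adenosine in mRNA, had 7.64, 7.41 and 7.42 against 6.68, and Arpc1b, a subunit of the actin-nucleating Arp2/3 complex, had 5.52, 5.67 and 5.65 against 4.88. The gene with the largest gap below, the olfactory receptor gene Or5h25, had 3.21 against 4.48, 5.50 and 5.54, and 3.00 in Day 4 replicate 1.

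Genes that differed with galactose were chosen after the filter on C646 and Day 6 signals. The fit used for this also took its spread from the Day 6 replicates, so the choice was not fully separate. It compared 3 galactose Day 4 arrays with 1 control array, none of them in the C646 comparison. There limma called 133 genes higher (2.26%) and 50 lower (0.848%) in galactose, with the lone control assumed to vary like the galactose replicates. These are termed galactose-raised and galactose-lowered, although they rest on that 1 control. Of the 133 galactose-raised genes, 25 (18.8%) lay above and 32 (24.1%) below all 3 Day 6 arrays with C646, at a median of 0.02, where the median of all genes was 0.09. Of the 50 galactose-lowered genes, 24 (48%) lay above and 10 (20%) below, at a median of 0.14. How many of the 133 and of the 50 passed the filter on signal only through C646 or only through Day 6 was not counted. Such genes can leave the Day 6 range on 1 side only. Nqo1, Gdf15 and Tp53inp1 were among the galactose-raised genes and lay a log2 of 1 or more above Day 6 with C646. H2ac25 and Hist2h2be were also among them and lay as far below. Susd2 and R3hdml were among the galactose-lowered genes and lay above Day 6, but they had to, since they passed the filter only through C646. R3hdml, a secreted protein gene, had 8.56 in the control, 3.94, 4.71 and 4.49 in Day 6 and 5.51 with C646, which was far from the control level. In a list of genes followed by qRT-PCR, 47 were analysed, of which 5 lay above and 16 (34%) below all 3 Day 6 arrays. The rule of size was passed by 0 of the 47, near the 0.746% of all genes that passed it. That list was chosen by the study on these arrays and is no independent evidence of direction. For its C646+CPTH2 part the study left out genes altered by C646 or CPTH2 alone. That choice could lower the count passing the rule of size, and how far it did was not tested.

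A second pair of arrays that differs by C646 is C646+CPTH2 against CPTH2, with 1 array each, and it shares no array with C646 against galactose Day 6. In this pair the median log2 difference over all genes was -0.15, and 29.8% of genes were above 0. Nqo1 had 9.24 with C646+CPTH2 and 6.16 with CPTH2, a difference of 3.08, beside the 2.47 without CPTH2. Ptgr1 had 8.52 and 7.48, a difference of 1.05, and a log2 difference of 1 or more was found for 0.458% of all genes. Of the 32 genes that lay above Day 6 by the rule of size, 11 were above 0 in this pair, and 3 of them by 1 or more, namely Nqo1, Ptgr1 and the olfactory receptor gene Or8h7b. By contrast 9 of the 32 were at -1 or less, as were 2.24% of all genes. Dusp1 had 5.50 with C646+CPTH2 and 7.74 with CPTH2, a difference of -2.24 in place of 1.65. Of the 12 genes that lay below Day 6, 7 were below 0 in the pair, where 70.0% of all genes were, and Gpx1 had 6.60 and 6.68.

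Of the 20 Nrf2 list genes, 15 were above 0 in this second pair, at a median of 0.21, where 29.8% of all genes were, at a median of -0.15. Txnrd1 had 7.01 with C646+CPTH2 and 6.06 with CPTH2, Gclm had 7.04 and 6.62, and Gstp1 had 7.17 and 6.79. Endoplasmic reticulum chaperones had 5 of 20 above 0 at a median of -0.39, and histone genes had 4 of 21 above 0 at -0.39. The chaperone count was near the share of all genes above 0, 29.8%. Of the lens epithelium genes 8 of 9 were below 0, where 70.0% of all genes were. Their mean was 5.57 with C646+CPTH2 and 6.51 with CPTH2, and the part of this in the other differences of the pair was not tested. The test of whether the C646 difference depended on CPTH2, an interaction term in limma with 1 array in 3 of its 4 groups, called 0 genes (0%), with 421 genes (7.14%) at an unadjusted p under 0.05. Its adjusted p was 0.24 for Dusp1 and 0.83 for Nqo1.

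**Figure D5:**
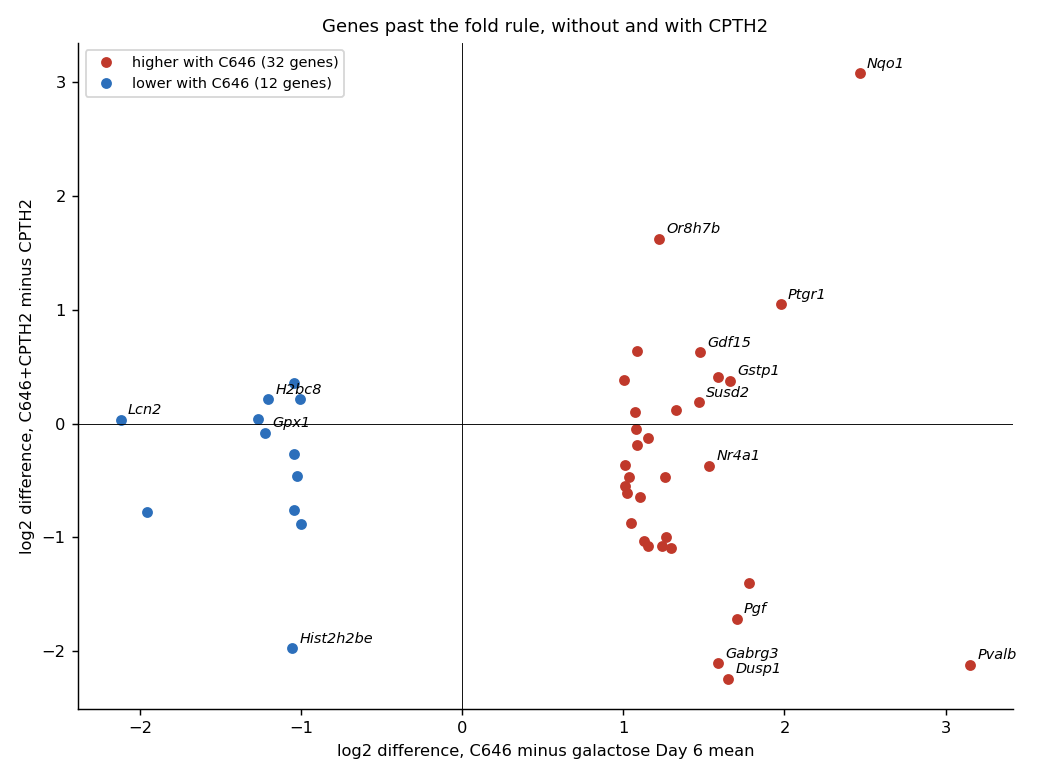
The 44 genes past the rule of size, with the log2 difference of C646 from the galactose Day 6 mean on the x axis and that of C646+CPTH2 from CPTH2 on the y axis. The comparisons share no array. Nqo1 and Ptgr1 lie above 1 on both axes, while Dusp1 and Pvalb lie above 1 without CPTH2 and below -2 with it.

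CBP30, which also targets p300 and CBP, was tested at 10 µM and C646 at 40 µM, so the values stand side by side without a comparison. Nqo1 had 5.61 with CBP30 and 8.12 with C646, Ptgr1 had 5.54 and 8.72, Gclc had 6.36 and 6.36, and Gpx1 had 6.66 and 6.40. Brd2, a BET bromodomain gene, had 9.65 with CBP30 and 8.15 with C646, against 7.49, 7.94 and 7.90 in galactose Day 6.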

How the data were processed

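The authors deposited log2 signals of 36685 probe sets from 13 GeneChip Rat Gene 2.0 ST arrays. Their preprocessing was done in R. Its background correction, normalization and probe summary are not given in the sources used here. The values were used as deposited, with no call of signal above background. Probe sets with 1 gene symbol in the platform annotation (18511, with 575 holding several and 17599 none) were kept, and of several for a gene (291 genes) the one with the highest mean over the 4 arrays was taken. All 18394 with an identifier in RefSeq kept their symbol. Genes with a log2 signal of 5 or more in at least 1 of the 4 arrays were analysed.

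Each condition was 1 group of a limma fit (version 3.58.1, R 4.3.3) that took in all 13 arrays. Tests were two-sided, and p-values were adjusted by Benjamini and Hochberg over 5898 genes. It had 4 residual degrees of freedom, all from the galactose replicates, and 5.17 prior ones. The number of arrays limits the precision. The fit was tested on simulated data. Python 3.11.15 (pandas 2.3.3, numpy 2.4.6, scipy 1.17.1) served for the summaries.

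Named genes were the 15 with the largest gap to the nearest galactose Day 6 array on each side (symbols of loci and small RNAs left out, 0 above and 1 below), up to 6 members per list, defining genes of the lists, and the acetyltransferases. Tfrc, R3hdml, Tp53inp1, Or8h7b and Brd2 were named outside this rule, after their values were seen. The comparison, the members and the 60 gene lists were chosen with earlier results of these data known. Alternatives were other filters, scalings, reference arrays, priors and size rules, and leaving out each galactose replicate.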

Additional observations from a re-analysis of the deposited data

How the results depend on the processing

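limma called 0 genes in every alternative run, and 0 for the dependence on CPTH2. The count at an unadjusted p under 0.05 was 253, 761 with no filter on signal, 164 with a signal of 6 or more, 203 to 328 without single replicates and 580 without replicate 1 of both days, an alternative added after the data were seen. The 44 genes past the rule of size became 349 at a 1.5-fold difference (261 above, 88 below), 12 with a gap of 1 (10 above, 2 below) and 114 with no filter (69 above, 45 below). Quantile normalization gave 24 above and 26 below in place of 32 and 12, and median centring 25 and 15. The genes below were 7 at a mean signal of 5 or more and 5 with Day 4 and Day 6 as the reference. Without single Day 6 replicates the count was 41 to 73, with 26 to 62 above and 11 to 15 below, and it was 73 without replicate 2 and 67 without replicate 3.

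Genes above all Day 6 arrays numbered 4512 with no filter, 1165 at a signal of 6 or more, 1039 against both days and 2384 to 2691 without single replicates. Genes below all numbered 1477 after quantile normalization, 1358 after median centring, 3973 with no filter, 492 at a signal of 6 or more, 537 against both days, 1659 without replicate 1 of both days, and 1119 to 1659 without single replicates. The cause was not tested, except that a filter or a reference changes which genes and arrays are counted.

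The crystallin median was -0.13 after quantile normalization and -0.28 after median centring, and the endoplasmic reticulum chaperone median was 0.24 against both days. The median of the galactose-raised genes was -0.089 after quantile normalization, -0.062 after median centring, -0.059 without replicate 1 of both days and -0.078 to 0.046 without single replicates, so it has no settled side. That of the galactose-lowered genes was 0.054 and 0.053 after these scalings, 0.26 with no filter and 0.14 to 0.34 without single replicates. The Nrf2 list counted 14 to 22 genes above all Day 6 arrays, with medians of 0.41 to 0.60, over all alternatives. These counts are not of the same total. With no filter it was 22 of 28, where 4512 of all 18166 genes lay above. After quantile normalization it was 14 of 20, where 1393 of all 5898 did. The 30 genes with the largest gaps kept their direction, and stayed short of the threshold, in all 461 values computed for them under the alternatives. In many of these settings the direction was fixed beforehand. The genes were chosen for lying outside the range of all Day 6 arrays, so leaving out a Day 6 replicate could not reverse it. Filters and priors do not alter the difference itself. Median centring moves all genes alike, and it took the median of all genes only from 0.09 to 0.007. The difference smallest in size among the 30 genes was -0.73, in Zfp367, so median centring could not reverse a direction either. Quantile normalization and the reference of both days could have reversed a direction, and did not. Other genes named were not recomputed.

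No paired analysis was possible because C646 is 1 array with no replicate number. A single C646 array leaves the spread of C646 lenses unknown, and the galactose and inhibitor arrays cannot be told apart from batches, which the labels do not give. Signals below 5 limit the sizes.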
